A study of Mus musculus with 16 samples.

Results

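The epidermal growth factor (EGF) receptor system was followed through 10 genes in glomerular preparations from diabetic mice. The genes were 4 ligands (Egf, Tgfa, Hbegf and Btc), 4 receptors (Egfr, Erbb2, Erbb3 and Erbb4), the feedback inhibitor Errfi1 and the membrane protein Cmtm8. All 10 were found by symbol among the 25791 symbols of the deposited table. They were chosen with the values of untreated and RAAS-blocked libraries known, so that contrast is described for them without a test.

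All 16 libraries came from mice of the same genotype, eNOS-/-//db/db, in which a leptin receptor mutation (db) is combined with loss of endothelial nitric oxide synthase. Untreated mice gave 9 libraries; their age is not labelled separately, and the protocol they share with the treated mice ends at 26 weeks. The other 7 came from mice given blockers of the renin-angiotensin-aldosterone system (RAAS), lisinopril at 20 mg/day and losartan at 30 mg/day in the drinking water, from 10 to 12 weeks until 26 weeks of age. Lisinopril inhibits angiotensin-converting enzyme and losartan blocks the angiotensin II type 1 receptor. RNA came from glomeruli of 1 kidney per mouse, isolated with iron and a magnet, and the labels do not say sample by sample that each library is a separate mouse, so each p-value reflects library-to-library spread, which may be technical. Both alleles are carried by every library, and mice without diabetes were not analysed here.

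EGF family ligands are made as membrane-anchored precursors and are released by metalloproteases of the ADAM family. They bind ErbB receptors, which pair with one another and signal through the RAS-MAP kinase and phosphoinositide 3-kinase pathways. In the kidney, Egf is made mainly in the thick ascending limb and the distal convoluted tubule. Angiotensin II is known to activate the EGF receptor in kidney cells through ligand shedding. Errfi1 (also called MIG6) binds and inhibits the active receptor kinase, and Cmtm8, a protein of the CMTM family with a MARVEL domain, has been described as promoting removal of the EGF receptor from the cell surface.

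The promoters of 3 genes, picked after the values were seen, are shown because Cmtm8 was the one gene of the 10 whose groups were separate, and because Egf and Erbb4 varied together across libraries. Each runs from 250 bases before to 50 after a transcription start in RefSeq (GRCm38.p6), and capitals mark matches to the GC box GGGCGG on either strand. The start nearest the 5′ end of the gene is shown for Egf, which has another start in the table.
Cmtm8 (chr9:114844103-114844402, minus strand): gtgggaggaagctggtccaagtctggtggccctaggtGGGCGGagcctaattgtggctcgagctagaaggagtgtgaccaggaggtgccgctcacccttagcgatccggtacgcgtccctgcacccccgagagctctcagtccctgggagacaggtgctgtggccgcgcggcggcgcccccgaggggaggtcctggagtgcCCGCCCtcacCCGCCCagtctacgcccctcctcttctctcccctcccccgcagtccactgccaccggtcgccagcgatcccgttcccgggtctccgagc
Egf (chr3:129755273-129755572, minus strand): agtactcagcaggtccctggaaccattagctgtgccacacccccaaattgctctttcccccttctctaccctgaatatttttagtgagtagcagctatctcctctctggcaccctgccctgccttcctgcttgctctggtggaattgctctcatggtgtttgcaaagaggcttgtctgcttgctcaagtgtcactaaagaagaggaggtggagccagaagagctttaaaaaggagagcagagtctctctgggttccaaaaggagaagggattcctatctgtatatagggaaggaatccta
Erbb4 (chr1:69108010-69108309, minus strand): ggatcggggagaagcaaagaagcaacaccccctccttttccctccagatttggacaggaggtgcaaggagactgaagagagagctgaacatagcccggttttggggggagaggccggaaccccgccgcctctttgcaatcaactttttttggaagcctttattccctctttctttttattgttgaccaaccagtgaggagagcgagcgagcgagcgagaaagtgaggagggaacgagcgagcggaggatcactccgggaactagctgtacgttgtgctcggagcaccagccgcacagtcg
The Cmtm8 promoter held 3 GC box matches and was 69.3% G and C, and the Egf and Erbb4 promoters shown held 0 such matches. Of 32851 promoters of the same length, 35.7% held a GC box. The E-box CACGTG (7.15% of promoters), the ETS motif CCGGAAGT (3.89%) and the HNF1 motif (GTTAAT, any 2 bases, then TTAAC; 0.0396%), searched on both strands, did not occur in the 3 sequences shown. Among the promoters not shown, GC box matches numbered 3 at 1 start of Errfi1, 2 in Tgfa and 1 in Egfr, the other Egf start had 1 ETS match, and the other Errfi1 start had 1 HNF1 match. Promoters of 8 of the 10 genes were in the table, and the matches describe letters only.

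The preparations were glomerular with a variable tubular share. Levels are given as FPKM (fragments per kilobase of transcript, scaled to the mapped fragments of the library). Of 10 podocyte markers, 9 were above 0, Podxl being listed at 0 in every library, and the podocyte score, their mean log2(FPKM + 1), ran from 6.88 to 8.19 in untreated and from 6.59 to 8.09 in RAAS-blocked libraries. Endothelial markers were all above 0 (9 of 9), led by Emcn between 369 and 988 FPKM. Umod, made in the thick ascending limb, ranged from 107 to 1168 FPKM and Slc34a1, of the proximal tubule, from 2.59 to 241 FPKM. Lymphocyte and urothelial markers did not exceed 1.68 FPKM in any library. Macrophage markers were present and varied, C1qb from 11.5 to 552 FPKM. The macrophage score ran from 2.52 to 7.03 untreated, highest in replicate 3, and from 3.23 to 5.46 treated. Library identifiers fell into 2 consecutive runs and 0 of them held both groups, so a run-wise batch and treatment cannot be told apart. Markers of mesangial and renin cells were higher in means after RAAS blockade, with score ranges of 4.16 to 6.10 untreated and 4.95 to 6.68 treated and Ren1 (renin) at 64.7 ± 76.1 FPKM (SD, n = 9) and 982 ± 579 FPKM (SD, n = 7). Fibroblast scores ran from 1.46 to 2.45 and from 2.30 to 3.24, and smooth muscle scores from 3.18 to 5.15 and from 4.77 to 5.43. Red cell scores had means of 4.29 untreated and 3.10 treated, with overlapping ranges. The part of these in the differences described here was not tested. In bulk RNA of this kind, fewer cells of a type and less RNA per cell cannot be told apart.

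Egf had the highest level of the 10 genes in all 16 libraries, at 239 ± 155 FPKM (SD, n = 16), followed by Cmtm8 at 37.1 ± 11.1 FPKM and Errfi1 at 25.5 ± 6.33 FPKM. Cmtm8 was above Errfi1 in 11 of 16 libraries, 9 of 9 untreated but 2 of 7 treated, and the treated means were 27.2 and 27.4 FPKM. Errfi1 was above Tgfa in 14 of 16. Tgfa (15.3 ± 4.75 FPKM) and Hbegf (14.8 ± 5.04 FPKM) came next and could not be ranked, as Tgfa was above Hbegf in 8 of 16 libraries. Erbb2 was the most abundant receptor, at 11.5 ± 3.03 FPKM, and exceeded Erbb3 (4.16 ± 2.07 FPKM) in all 16 libraries. Hbegf was above Erbb2 in 11 of 16 and Erbb3 above Btc (3.21 ± 2.18 FPKM) in 11 of 16, 8 of 9 untreated but 3 of 7 treated, where Btc had the higher mean (4.25 against 3.46 FPKM). Egfr itself was low, at 1.90 ± 0.688 FPKM, and close to Erbb4 at 1.63 ± 0.887 FPKM, which it exceeded in 12 of 16 libraries. Btc was above Egfr in 11 of 16. All 10 genes passed the filter of at least 1 FPKM in at least 7 libraries, Erbb4 with 11 libraries and Btc and Egfr with 15.

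**Figure D1:**
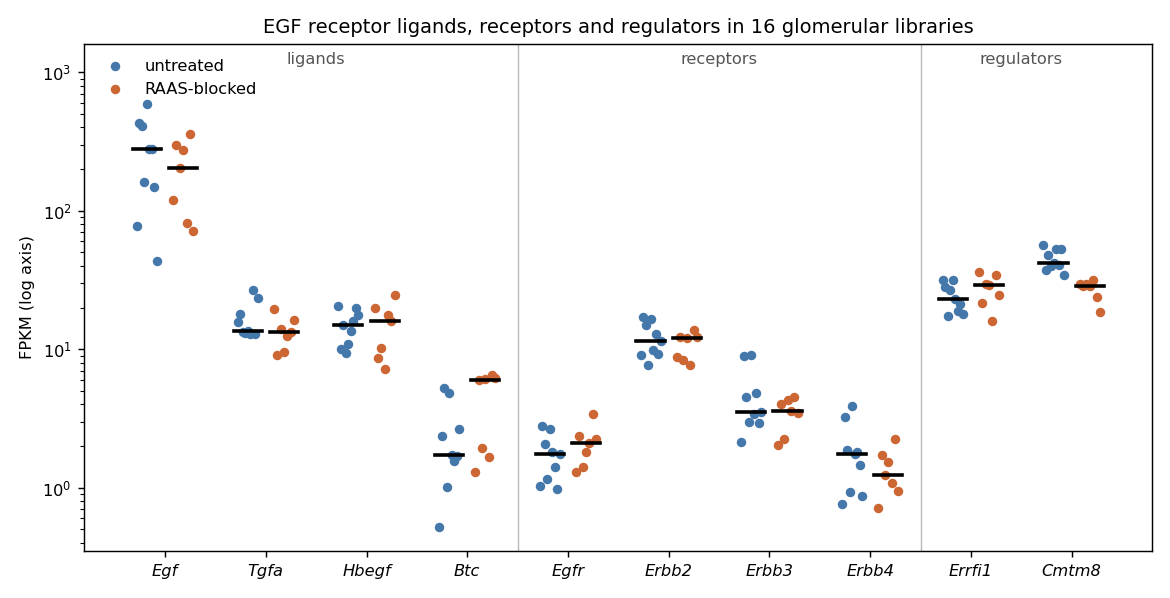
FPKM of each gene (log axis) in the 9 untreated and 7 RAAS-blocked libraries, 1 point per library, with the group median as a bar. Cmtm8 is the one gene whose groups do not overlap, and Egf spans from 43.3 to 591 FPKM.

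Cmtm8 was lower in every RAAS-blocked library than in any untreated one. In untreated replicates 0 to 8 it was at 56.4, 37.1, 48.3, 39.8, 41.7, 53.1, 40.7, 52.9 and 34.1 FPKM. In RAAS-blocked replicates 0 to 6 it was at 29.5, 28.5, 29.7, 28.8, 31.4, 23.9 and 18.5 FPKM. The lowest untreated library lay 2.73 FPKM above the highest treated one, and 5 of the treated values sat close together, with replicates 5 and 6 below them. The means were 44.9 ± 7.94 FPKM (SD, n = 9) and 27.2 ± 4.47 FPKM (SD, n = 7), a ratio of 0.605. The difference of log2(FPKM + 1), RAAS-blocked minus untreated, was -0.70 ± 0.12 (SE). Of 13286 genes tested, 3 (0.0226%) had all treated libraries below all untreated ones, and Cmtm8 is 1 of them by the way it was chosen, so nothing is read from this count. The other 2 were Mgat1 and Rilpl1, named after their values were seen. Separation in the opposite direction was found for 5 genes (0.0376%), none of them among the 10, and in either direction for 8 (0.0602%).

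Cmtm8 rose with the score of endothelial markers within each group (r = 0.80 within untreated and 0.88 within RAAS-blocked libraries). It was inverse to the podocyte and collecting duct scores, as given further below. The endothelium score, the mean log2(FPKM + 1) of its 9 markers, ran from 7.12 to 8.14 in untreated and from 6.92 to 7.78 in RAAS-blocked libraries. Emcn was at 704 ± 171 FPKM (SD, n = 9) untreated and 550 ± 130 FPKM (SD, n = 7) treated, and Ehd3 at 503 ± 127 and 375 ± 134 FPKM. Pecam1 was at 304 ± 83.6 and 278 ± 53.5 FPKM. Plvap went the other way, at 113 ± 43.7 and 134 ± 40.4 FPKM. With the endothelium score as a covariate, chosen after seeing that Cmtm8 tracks it, the Cmtm8 difference was -0.56 ± 0.08. It was -0.76 ± 0.09 with the podocyte score and -0.71 ± 0.13 with the thick ascending limb score, covariates also added after the data were seen.

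The relatives of Cmtm8 were listed as a comparison. Of the 8 other CMTM genes, 5 were tested and 0 were called by limma at an adjusted p under 0.05 (0 also at an unadjusted p under 0.05). Cmtm4 averaged 10.5 ± 2.48 FPKM without and 8.48 ± 2.47 FPKM with RAAS blockade (log2 difference -0.30 ± 0.17, limma adjusted p = 0.830). Cmtm7 was at 88.5 ± 34.0 and 72.9 ± 25.1 FPKM (limma adjusted p = 0.914), and Cmtm6 at 47.5 ± 3.22 and 45.7 ± 4.03 FPKM (limma adjusted p = 0.931). Cmtm3 was at 33.8 ± 8.74 and 32.6 ± 4.95 FPKM (limma adjusted p = 0.987) and Cklf at 4.55 ± 1.68 and 5.51 ± 1.03 FPKM (limma adjusted p = 0.862). Cmtm2a and Cmtm5 stayed under the filter and Cmtm2b was listed at 0 in every library. Differences between Cmtm8 and these relatives were not tested.

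The ligands overlapped between the groups. Egf had its lowest, median and highest values at 43.3, 278 and 591 FPKM in untreated and at 71.1, 203 and 359 FPKM in RAAS-blocked libraries. Its highest untreated values were in replicates 4, 1 and 2 (591, 431 and 406 FPKM), above every treated library, and its log2 difference of -0.27 ± 0.52 was smaller than its SE. The thick ascending limb score had means of 5.64 untreated and 5.44 treated; of its markers, Umod was at 533 ± 333 FPKM (SD, n = 9) and 318 ± 184 FPKM (SD, n = 7), Kcnj1 at 62.8 ± 38.5 and 61.9 ± 32.1 FPKM, and Cldn16 at 8.13 ± 4.66 and 8.67 ± 5.42 FPKM. The Egf difference was -0.04 ± 0.26 with that score as covariate, -0.37 ± 0.53 with the podocyte score and -0.45 ± 0.56 with the endothelium score. It was 0.08 ± 0.47 with array weights and -0.65 ± 0.45 with the replicate block, so its sign and size depended on the setting.

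Tgfa, a ligand of Egfr, was at 12.8, 13.5 and 26.9 FPKM (lowest, median, highest) untreated and at 9.14, 13.3 and 19.7 FPKM treated. Untreated replicates 6 and 8 (26.9 and 23.5 FPKM) stood above all treated libraries, and RAAS-blocked replicates 1, 3 and 4 lay below the lowest untreated one. The log2 difference was -0.28 ± 0.18. Hbegf, the heparin-binding ligand of Egfr and Erbb4, was at 9.40, 14.8 and 20.4 FPKM untreated and at 7.24, 16.1 and 24.5 FPKM treated. Its treated range enclosed the untreated one and the log2 difference was -0.05 ± 0.24. Its sign turned when single libraries were left out.

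Btc (betacellulin, a ligand of Egfr and Erbb4) had separate high and low values in the treated group. RAAS-blocked replicates 1, 3, 5 and 6 were at 6.01, 6.14, 6.49 and 6.21 FPKM, above every untreated library. Replicates 0, 2 and 4 were at 1.31, 1.93 and 1.66 FPKM, within the untreated range of 0.519 to 5.29 FPKM. The same 4 treated libraries had the highest collecting duct scores of their group (4.59 to 5.16), against 2.98 to 3.75 in the other 3. Untreated replicates 1, 2, 4, 6 and 8 also scored above 4.59, but had Btc at only 1.55 to 5.29 FPKM. The mean collecting duct score was 4.24 in untreated and 4.29 in RAAS-blocked libraries. Btc means were 2.41 ± 1.64 FPKM (SD, n = 9) and 4.25 ± 2.46 FPKM (SD, n = 7), with a log2 difference of 0.59 ± 0.34. It was 0.34 ± 0.32 with the endothelium score as covariate, 0.71 ± 0.25 with the thick ascending limb score and 0.58 ± 0.36 with the podocyte score. The collecting duct score was not used as a covariate, so its part in the Btc difference was not tested.

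Receptor values also overlapped. Erbb2, which has no known ligand of its own and acts as the partner of the others, was at 7.72, 11.5 and 17.1 FPKM (lowest, median, highest) untreated and at 7.70, 12.0 and 13.9 FPKM treated (log2 difference -0.14 ± 0.17). Erbb3, a receptor with a weak kinase that recruits phosphoinositide 3-kinase, was at 2.15, 3.52 and 9.12 FPKM untreated and at 2.05, 3.59 and 4.53 FPKM treated. Its medians were close, and its log2 difference was -0.27 ± 0.24. Untreated replicates 4 and 1 held the highest values (9.12 and 8.89 FPKM) and the highest convoluted proximal tubule scores (4.91 and 5.11), whose part in the difference was not tested. Without either of them the difference was -0.16, and with the endothelium score as covariate it was -0.49 ± 0.20.

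Erbb4, a receptor for neuregulins, was highest in those 2 libraries as well (3.88 and 3.25 FPKM), with medians of 1.76 FPKM untreated and 1.24 FPKM treated and a log2 difference of -0.22 ± 0.21. Egfr was at 0.988, 1.76 and 2.80 FPKM untreated and at 1.30, 2.12 and 3.42 FPKM treated (log2 difference 0.19 ± 0.16). RAAS-blocked replicate 5 held the highest Egfr value. Errfi1 was at 17.5, 22.9 and 31.6 FPKM untreated and at 16.1, 28.9 and 36.3 FPKM treated (log2 difference 0.17 ± 0.17), with both extremes in the treated group.

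**Figure D2:**
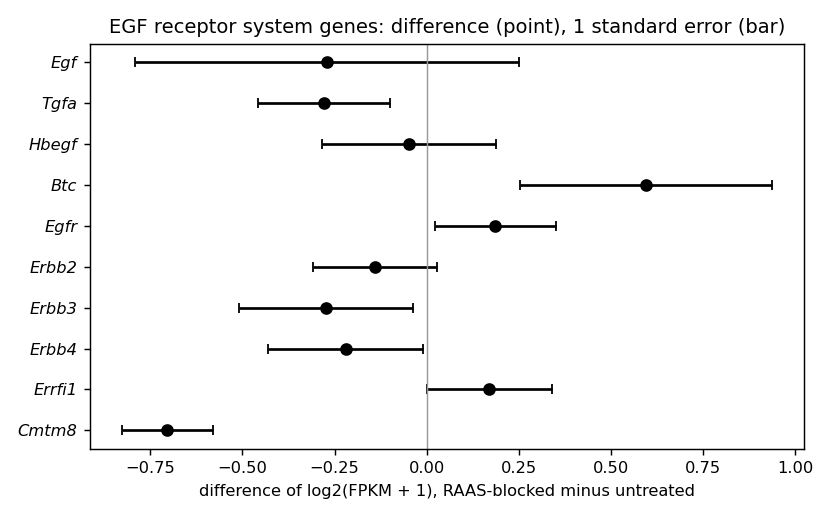
Difference of log2(FPKM + 1), RAAS-blocked minus untreated, for each gene (point) with 1 SE (bar) from the fit across all genes. Cmtm8 lies at -0.70 and Btc at 0.59, and the other 8 lie between -0.28 and 0.19.

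Across the 10 genes, 7 log2 differences were below 0 and 3 above, with a median of -0.18, against a median of -0.02 over all 13286 genes tested, of which 55.3% were lower. Limma called 0 of the 10 at an adjusted p under 0.05, and 2 genes of all tested (0.0151%), Rn18s higher (0.00753%) and Mgat1 lower (0.00753%). Mgat1 was at 60.2 ± 2.90 FPKM (SD, n = 9) untreated and 48.1 ± 2.70 FPKM (SD, n = 7) treated (log2 difference -0.32). Rn18s, the 18S ribosomal RNA, was listed at 0 in every untreated library and averaged 3983 ± 2715 FPKM (SD, n = 7) treated. For Rn18s too, treatment and a run-wise batch cannot be told apart. At an unadjusted p under 0.05 there were 1 of the 10 (Cmtm8) and 814 of all tested (6.13%). Because the 10 were chosen on this contrast, nothing is read from these counts.

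The wider pathway was read from 5 lists of other genes. Of 101 listed, 89 were tested, and limma called 0 higher and 0 lower at an adjusted p under 0.05. The log2 difference was above 0 in 43 and below 0 in 46, with a median log2 difference of -0.01. At an unadjusted limma p under 0.05 there were 7 (7.87%, against 6.13% of all genes tested). By the exact Wilcoxon test there were 4 of the 89 at an unadjusted p under 0.05, against 756 of all 13286 genes tested.

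The other ligands were scarce. Areg, Ereg, Epgn and Nrg2 did not exceed 0.229 FPKM in any library, Nrg1 and Nrg4 did not exceed 0.974 FPKM, and Nrg3 was listed at 0 throughout, so 0 of 7 were tested. The ligand shedding list counts Timp3, an inhibitor of metalloproteases, together with the proteases. Among its 9 tested genes, 6 log2 differences were above and 3 below 0, with a median log2 difference of 0.08, the value of Timp3 itself. The log2 difference was -0.02 ± 0.12 for Adam10 (limma adjusted p = 0.989) and -0.01 ± 0.13 for Adam17 (limma adjusted p = 0.993). Adam9 was at 74.1 ± 17.8 FPKM (SD, n = 9) untreated and 84.4 ± 10.9 FPKM (SD, n = 7) treated (limma adjusted p = 0.867). Adam12 was at 2.04 ± 1.39 and 3.15 ± 1.51 FPKM (limma adjusted p = 0.861), and Adam8 at 2.73 ± 2.27 and 4.15 ± 4.20 FPKM (limma adjusted p = 0.922). Rhbdf1, an inactive rhomboid that supports the maturation of ADAM17, was at 21.3 ± 3.09 and 22.9 ± 3.64 FPKM (limma adjusted p = 0.927).

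In the signal relay, 8 of 27 tested genes had log2 differences above 0 and 19 below, with a median log2 difference of -0.04. Hras1, the older symbol of the small GTPase gene Hras, averaged 28.5 ± 3.68 FPKM without and 24.8 ± 2.37 FPKM with RAAS blockade (log2 difference -0.19 ± 0.08, limma adjusted p = 0.801). Pik3r1, a regulatory subunit of phosphoinositide 3-kinase, was at 23.5 ± 4.33 and 31.1 ± 8.12 FPKM (log2 difference 0.36 ± 0.17, limma adjusted p = 0.804). Stat3 was at 59.9 ± 7.20 and 80.4 ± 37.3 FPKM (limma adjusted p = 0.820), with RAAS-blocked replicate 6 at 163 FPKM. Mapk3 (ERK1) was at 129 FPKM (94.7 to 160 FPKM) untreated and 114 FPKM (94.9 to 129 FPKM) treated (limma adjusted p = 0.858). None of these differences passed the test.

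Receptor brakes and genes of endocytosis, counted together in 1 list, were evenly divided. Of 28 tested genes 14 were higher and 14 lower, with a median log2 difference of -0.002. Spred2, an inhibitor of RAS-MAP kinase signalling, had the lowest p of the pathway, at 33.8 ± 3.74 FPKM without and 27.4 ± 3.03 FPKM with RAAS blockade (log2 difference -0.29 ± 0.08, limma adjusted p = 0.506). Its groups overlapped, from 27.2 to 38.9 FPKM untreated and from 22.7 to 30.8 FPKM treated. Lrig3, of a family that includes the receptor inhibitor LRIG1, was at 3.15 ± 0.382 and 2.68 ± 0.193 FPKM (limma adjusted p = 0.755), and the Sprouty gene Spry1 at 24.2 ± 6.01 and 19.1 ± 3.68 FPKM (limma adjusted p = 0.804). Sh3kbp1, which links the receptor to endocytosis, was at 4.11 FPKM (2.28 to 8.26 FPKM) untreated and 5.48 FPKM (4.21 to 6.87 FPKM) treated (limma adjusted p = 0.810).

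Genes of the transcriptional response to ERK signalling were listed together with the transcription factor genes Elk1, Elk3 and Srf. Log2 differences were above 0 in 15 of 25 tested and below in 10, with a median log2 difference of 0.01. Those of Fos (0.03 ± 0.53), Egr1 (0.09 ± 0.37) and Dusp6 (0.01 ± 0.20) were smaller than their SE. The genes named next had the lowest p of the list. Dusp4, a phosphatase of MAP kinases, averaged 8.00 ± 1.79 FPKM without and 5.97 ± 1.74 FPKM with RAAS blockade (log2 difference -0.38 ± 0.15, limma adjusted p = 0.745). Etv5 was at 6.66 ± 1.64 and 5.62 ± 1.29 FPKM (limma adjusted p = 0.867). Myc was at 4.09 ± 2.24 and 5.56 ± 2.79 FPKM (limma adjusted p = 0.873) and Ier3 at 72.2 ± 14.8 and 85.7 ± 28.2 FPKM (limma adjusted p = 0.907).

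Differences between libraries within a group were tested next, after the group means had been removed, which makes them independent of the contrast used to choose the genes. The genes and markers were chosen with earlier results of these data known, so independence from those other results is not claimed. Each of the 10 genes was correlated with 6 cell type scores over the 16 libraries. Of these 60 pairs, 25 passed a Benjamini-Hochberg adjusted p of 0.05 in a two-sided permutation test with 100000 draws, 20 positive and 5 negative, and all 25 had the same sign in both groups. With Spearman's rho 26 passed. The share of all tested genes that would pass with these scores was not computed. Nothing particular to the 10 genes is therefore read from these counts. The scores themselves were related, for example the thick ascending limb with the distal convoluted tubule (r = 0.87). The endothelium score was inverse to the collecting duct score (r = -0.80) and to the podocyte score (r = -0.71). FPKM also ties all genes of a library together.

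Egf and Erbb4 passed with the scores of the proximal tubule, the thick ascending limb and the distal convoluted tubule. Egf had r = 0.88 with the thick ascending limb score (permutation p = 5e-05, adjusted p = 0.00072) and rho = 0.90 (permutation p = 3e-05). The r was 0.87 within untreated and 0.93 within RAAS-blocked libraries, and 0.84 without the 2 libraries farthest from the median score. With the distal convoluted tubule score Egf had r = 0.88 (permutation p = 3e-05, adjusted p = 0.00060, rho = 0.88). Erbb4 had r = 0.87 with the thick ascending limb score (permutation p = 1e-05, the smallest the draws can give, adjusted p = 0.00060) and rho = 0.91. Its r was 0.94 within untreated and 0.84 within treated libraries, and 0.86 without the 2 farthest.

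Erbb2 and Btc went with the collecting duct markers, such as the water channel gene Aqp2 (17.2 to 545 FPKM). Erbb2 had r = 0.89 (permutation p = 3e-05, adjusted p = 0.00060, rho = 0.88), with 0.85 within untreated, 0.96 within treated libraries and 0.91 without the 2 farthest. Btc had r = 0.87 (permutation p = 8e-05, adjusted p = 0.00080, rho = 0.84), with 0.83 within untreated, 0.92 within treated libraries and 0.83 without the 2 farthest. Erbb3 (r = 0.76, rho = 0.75, adjusted permutation p = 0.0028) and Egfr (r = 0.71, rho = 0.69, adjusted permutation p = 0.014) also passed with that score. All 4 receptors and Btc passed with both the thick ascending limb and the collecting duct score, which were themselves related (r = 0.71). With the thick ascending limb score Erbb2 had r = 0.79 (adjusted permutation p = 0.0055), 0.89 within untreated and 0.65 within treated libraries. Btc had r = 0.71 with that score (adjusted permutation p = 0.020), 0.81 within untreated and 0.60 within treated libraries. Which of the 2 segments these genes follow was not tested. Erbb2 (r = -0.70, rho = -0.70, adjusted permutation p = 0.019) and Erbb3 (r = -0.65, rho = -0.71, adjusted permutation p = 0.029) were inverse with the endothelium score. Neither of these inverse relations passed when values were not centred within group (r = -0.57, adjusted permutation p = 0.054, and r = -0.49, adjusted permutation p = 0.11). The relation of Egfr (r = 0.66) and Erbb3 (r = 0.65) with the convoluted proximal tubule score rested partly on untreated replicates 1 and 4, without which r was 0.48 and 0.37. Within untreated libraries r was 0.87 and 0.81, but within treated libraries only 0.23 and 0.12. With Spearman's rho Erbb3 did not pass (adjusted permutation p = 0.052). Neither gene passed with quantile normalization (adjusted permutation p = 0.078 and 0.068).

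Tgfa followed podocyte markers. Its r with the podocyte score was 0.79 (permutation p = 0.00048, adjusted p = 0.0028) and rho was 0.74 (permutation p = 0.0021). It was 0.87 within untreated and 0.71 within treated libraries, and 0.75 without the 2 farthest. Egf (r = -0.26), Btc (r = -0.04) and Hbegf (r = 0.32) did not pass with that score, and the difference between these correlations was not tested. Hbegf passed with 1 score, inversely, the distal convoluted tubule (r = -0.61, rho = -0.61, adjusted permutation p = 0.040). It passed in 7 of the 16 repeats that left out 1 library, and r was -0.49 without the 2 farthest.

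Cmtm8 followed the endothelium score with r = 0.82 (permutation p = 0.00037, adjusted p = 0.0026) and rho = 0.84 (permutation p = 0.00020). The r was 0.80 within untreated and 0.88 within RAAS-blocked libraries, and 0.74 without RAAS-blocked replicate 6 and untreated replicate 0, the 2 farthest. It was inverse with the podocyte score (r = -0.69, rho = -0.61, adjusted permutation p = 0.020) and the collecting duct score (r = -0.67, rho = -0.67, adjusted permutation p = 0.020). Without the 2 farthest libraries these were -0.58 and -0.55. Neither passed when values were not centred within group (r = -0.24, adjusted permutation p = 0.52, and r = -0.40, adjusted permutation p = 0.25). Both scores were themselves inverse to the endothelium score (r = -0.71 and r = -0.80). Errfi1 passed with 0 of the 6 scores, its greatest r being 0.32, with the convoluted proximal tubule.

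**Figure D3:**
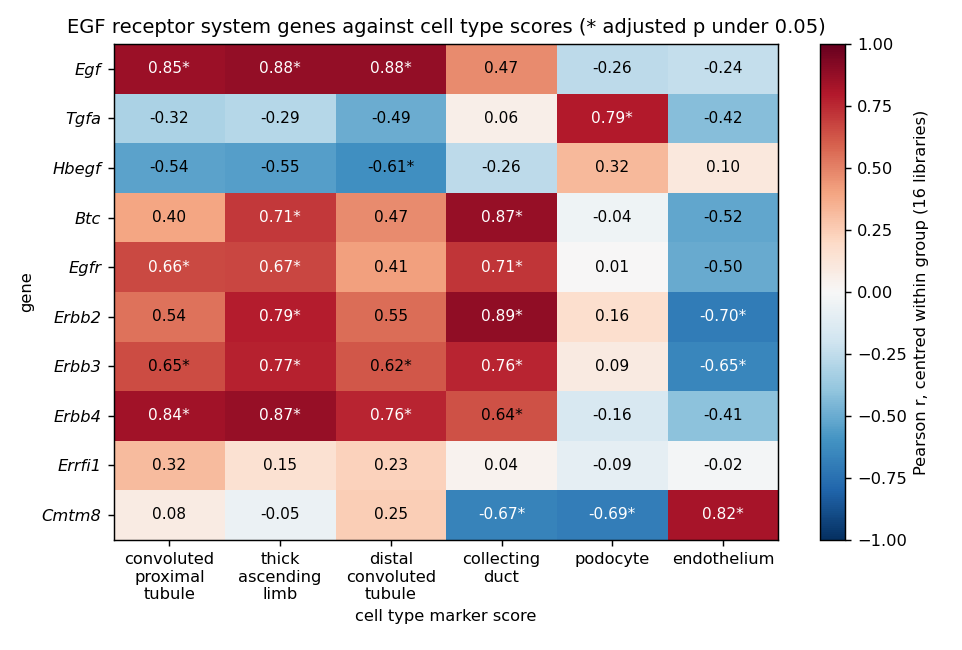
Pearson r, centred within treatment group over 16 libraries, of each gene (rows) with each cell type marker score (columns), from -1 (blue) to 1 (red), with an asterisk where the adjusted permutation p is under 0.05. The 4 receptors are positive with all 4 tubule scores, Tgfa has its greatest r with the podocyte score (0.79) and Cmtm8 with the endothelium score (0.82).

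**Figure D4:**
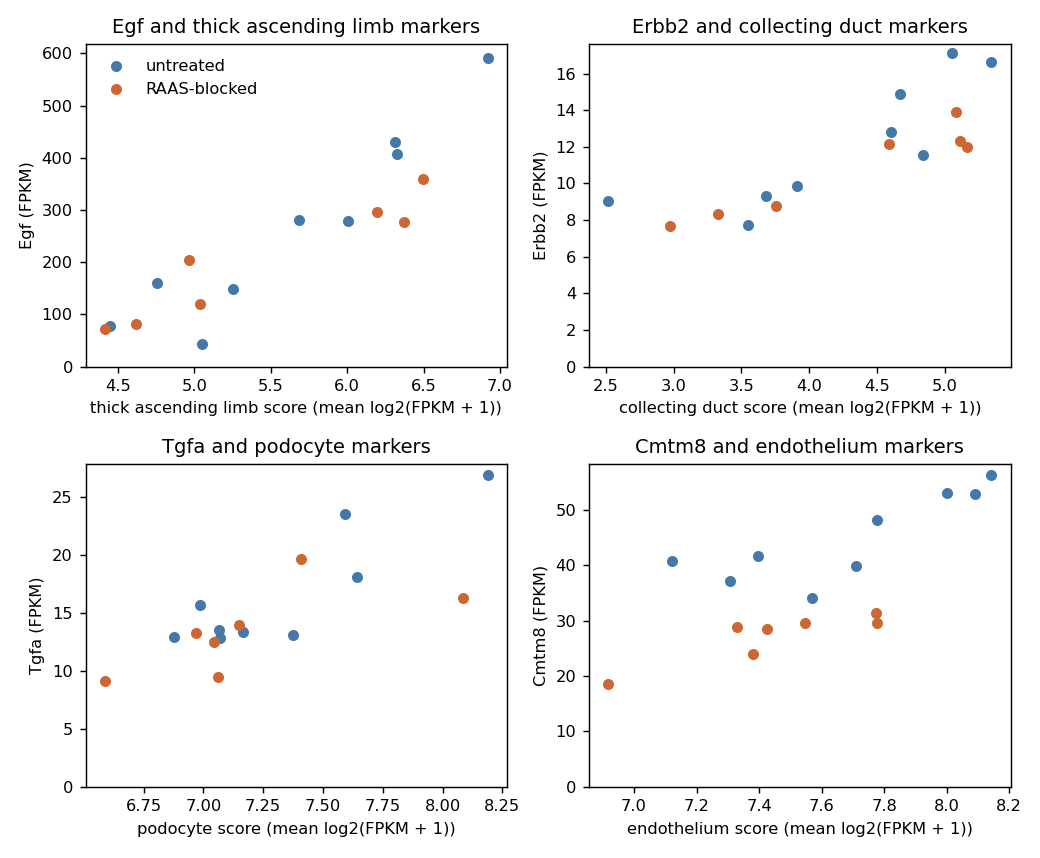
FPKM of 4 genes against the mean log2(FPKM + 1) of cell type markers, 1 point per library, coloured by group, neither axis centred. Egf rises with the thick ascending limb score and Erbb2 with the collecting duct score in both groups, and Cmtm8 rises with the endothelium score within each group.

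Among themselves the receptors varied together, given here as a description over 16 libraries of one table. Centred within group, r was 0.90 for Erbb3 with Erbb4, 0.86 for Egfr with Erbb3, 0.85 for Erbb2 with Erbb3 and 0.82 for Egfr with Erbb2. Egf with Erbb4 had r = 0.86 and Btc with Erbb2 r = 0.83. The greatest inverse value was that of Egf with Hbegf (r = -0.63, -0.61 within untreated and -0.74 within treated libraries). Cmtm8 was inverse to Erbb2 (r = -0.49), Egfr (r = -0.46) and Tgfa (r = -0.46).

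The tested genes whose centred values were most like those of each of the 10 were taken as the 3 with the highest r over the 16 libraries. For Egf these were the mitochondrial genes Nnt (r = 0.96), Oxct1 (r = 0.95) and Acat1 (r = 0.95), the last pair enzymes of ketone body metabolism. For Erbb4 they included Acadm (r = 0.96), an enzyme of fatty acid oxidation, and Hibadh (r = 0.95), an enzyme of valine breakdown. For Btc they included the collecting duct receptor gene Avpr2 (r = 0.93), which is in that score, with Il17re (r = 0.94) and Ubqln4 (r = 0.94).

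Erbb2 was closest to Inadl (r = 0.97), a gene of epithelial polarity, and to the collagen receptor gene Ddr1 (r = 0.96). Erbb3 was closest to Osbpl1a (r = 0.97), Syn2 (r = 0.95) and Hook1 (r = 0.95), and Egfr to the carnitine transporter gene Slc22a5 (r = 0.92). Tgfa was closest to Nxph3 (r = 0.95), Pbx2 (r = 0.94) and Raver2 (r = 0.92). For Cmtm8 they were Fbxo32 (r = 0.92), which encodes a muscle-type ubiquitin ligase, Pcnx (r = 0.92) and Phospho1 (r = 0.91). Hbegf and Errfi1 had lower greatest values, 0.84 each, with Ankrd33b and Zfp689.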

How the data were processed

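RNA sequencing of glomerular preparations (9 untreated and 7 RAAS-blocked libraries) was deposited by the authors as FPKM values, 1 column per library, per the file headers. Tools listed in the submitters' processing notes, without their roles, include TopHat2 2.0.8 and Cuffdiff 2.2.1. In the sources used here, genome build, annotation and strand setting are not given. The table holds no counts, so absolute depth is unknown and no counting interval is given; 16919 to 18613 symbols per library were above 0. Low values (under 0.05 FPKM), compared with those of untreated replicate 0, took a simple step within 0.05 on the log2 scale for 62.0% to 74.2% of genes, too few to recover whole reads.

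Groups come from the sample titles. Values were tested as log2(FPKM + 1), which understates changes of low genes, with limma 3.58.1 in R 4.3.3 (mean trend, robust), group as the only term, over 13286 genes that reached 1 FPKM in 7 or more libraries, adjusted by Benjamini-Hochberg at 0.05. Correlations used values centred within group and 100000 permutations of libraries within group. The members, lists and markers were chosen with earlier results of these data known. Named genes are the 10 members, the 3 genes most like each (some not printed), the 4 of each pathway list with the lowest p, all other ligands and CMTM genes, up to 2 abundant markers of each score and genes called where 5 or fewer; 1 marker is not reported here. The Wilcoxon test was exact except for genes with tied values, where a normal approximation was used. Further markers and list genes were named after their values were seen. Functions were tested on simulated data. Alternatives covered pseudocount, filter, scaling, weights, variance model, replicate block, rank test, and leaving out each library; the cell type score covariates, the counts of members called or with separate groups, and the promoters and motifs shown were chosen after seeing the data. Leaving out a library was first run with the filter applied again to the remaining libraries; after its counts were seen, the 13286 genes were held fixed so that 1 choice changes at a time, and both versions are reported. No pair of libraries was identical.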

Additional observations from a re-analysis of the deposited data

Results flagged for a closer look

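Among 31 genes examined in 2 groups each (62 sets of values), 5 values stood apart from the rest of their group by Dixon's criterion, which chance alone meets in about 1 in 20 groups. None belonged to the 10 EGF receptor system genes; all were in other pathway genes. Adam8 was at 13.5 FPKM and Myc at 11.6 FPKM in RAAS-blocked replicate 0, against at most 4.18 and 5.60 FPKM in the other treated libraries. Stat3 was at 163 FPKM in RAAS-blocked replicate 6, against 58.0 to 83.8 FPKM in the others. Sh3kbp1 was at 8.26 FPKM and Etv5 at 10.7 FPKM in untreated replicate 3, against at most 5.07 and 7.04 FPKM in the other untreated libraries. Untreated replicate 3 also had the highest macrophage score (7.03), whose part in these values was not tested.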

How the results depend on the processing

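The Cmtm8 difference stayed between -0.76 and -0.56 over all settings and its groups did not overlap under upper-quartile scaling or quantile normalization. Leaving out 1 library moved these differences by over 1.5 times: Egf (-0.55 to -0.06), Hbegf (-0.18 to 0.09), Erbb2 (-0.21 to -0.07), Erbb3 (-0.37 to -0.16, least without untreated replicate 4), Erbb4 (-0.30 to -0.11, least without untreated replicate 4), Egfr (0.10 to 0.25, least without RAAS-blocked replicate 5) and Errfi1 (0.10 to 0.28, without RAAS-blocked replicates 0 and 4). Pathway genes called were 0 under every setting run. The count of all genes called, 2 in the main analysis, was 1 with upper-quartile scaling, quantile normalization, no mean trend or the replicate block, 11 with array weights and 8 with the podocyte or the endothelium score as covariate; it ran from 1 to 6 without 1 library, 4 without untreated replicate 8 and 6 without RAAS-blocked replicate 4. With the filter applied again to the remaining libraries, the version run first, it ran from 0 to 4: 0 in 6 of the 7 repeats without a RAAS-blocked library, where Rn18s left the tested set, and 4 without untreated replicate 8 or RAAS-blocked replicate 4; the members called ran from 0 to 1 there too, Cmtm8 without untreated replicate 8. The gene set was held fixed only after these counts were seen. The exact Wilcoxon test called 0 (756 at an unadjusted p under 0.05), but its smallest possible p is 0.000175, so calls would need at least 47 genes to pass together. The count of the 10 members called was 1 (Cmtm8) with array weights and with the podocyte or endothelium score as covariate. That count ran from 0 to 1 without 1 library, 1 only without untreated replicate 8. Because the 10 were chosen on this contrast, nothing is read from calls of members under any setting. Correlations called ran from 16 (without untreated replicate 0) to 28 without 1 library, and from 18 to 26 under the other settings; of the 25, 15 passed in all 16 repeats without 1 library. The cause of these shifts was not tested. Same-numbered replicates share only a number: deviations of the 7 pairs correlated from -0.28 to 0.43, 4 over 0.1, and 2 of 7 correlated best with their own number. The replicate block, over the 14 libraries with shared numbers, gave 1 gene called and a Cmtm8 difference of -0.72.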
